A study of Mus musculus with 4 samples.

Results

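Dntt-positive, Il7r-negative cells made up 3235 of the 33042 classified bone marrow cells (9.79%). A cell was a member when it held at least 2 UMIs (unique molecular identifiers, one per captured transcript) of Dntt and 0 of Il7r, Ebf1, Cd79a, Trbc1 and Trbc2, so the members were chosen by the measured UMIs of these 6 genes, whose levels are only described. The members were compared with 11610 Flt3-positive Dntt-negative cells (at least 2 UMIs of Flt3, 0 of Dntt and 0 of the 5 other genes) and with 565 cells that held both Dntt and Il7r (at least 2 and at least 1 UMI) and none of the other 4 genes. All cells came from the bone marrow of 2 male Tppp3CreER LSLTdTomato mice, 3 months old, given tamoxifen on postnatal days 0 and 3. Both the tdTomato-positive and the tdTomato-negative cells therefore came from animals with the same alleles and the same drug. In these mice tdTomato marks cells in which the Cre driven by the Tppp3 gene was active in the newborn, and the progeny of such cells. Cells negative for lineage markers and positive for Sca-1 and Kit were sorted into 4 tubes (1 mouse and 1 tdTomato gate each), and every tube was run on 2 droplet chemistries of 10x Genomics, v3.1 and GEM-X. The labels describe the sort both as 2 tubes by gate and as 4 hashed samples, and the hashtag text was followed. With 2 mice and 1 library per chemistry, p-values rest on how the differences within a tube or mouse vary, and say little about other animals.

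Dntt encodes terminal deoxynucleotidyl transferase, the template-independent polymerase that adds nucleotides at the joints of rearranging antigen receptor genes. In the marrow its transcript appears in part of the Flt3-expressing multipotent progenitors, the lymphoid-primed cells, before the receptor for interleukin 7 and the genes of B or T cell commitment are expressed. Flt3 encodes the receptor tyrosine kinase that these progenitors need for lymphoid output, and Satb1 a chromatin organizer active in early lymphoid cells.

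The tube of each cell was read from its hashtag, an antibody-bound oligonucleotide whose barcode was sequenced with the transcripts. The 4 barcodes are shown because every comparison between mice or gates rests on them, 15 bases each.
mouse 1 positive: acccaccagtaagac
mouse 1 negative: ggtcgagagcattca
mouse 2 positive: cttgccgcatgtcat
mouse 2 negative: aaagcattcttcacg

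Gene UMIs numbered 234563105 in the GEM-X library and 178214937 in the v3.1 library. The libraries shared no cell barcode, and gave a median of 6660 to 10141 UMIs per classified cell by tube and chemistry. Median depth was 10755 UMIs in the members, 9092.5 in the Flt3-positive Dntt-negative cells and 13614 in the cells with both Dntt and Il7r. A threshold in UMIs takes deeper cells more easily, so shares are also given after thinning cells to 4000 UMIs. Cells below that depth were left out there. They were 244 of 7094 cells in the mouse 1 negative tube of GEM-X and up to 176 of 1763 in the mouse 2 positive tube of v3.1. For group shares and fits after thinning, the groups were called again on the thinned counts. Shares of members with a UMI of a gene kept the first calls. Levels are CPM, counts per 1e+06: the UMIs of a gene scaled to that many UMIs summed over the cells of a group in a tube. Each is given in the order mouse 1 positive, mouse 1 negative, mouse 2 positive, mouse 2 negative.

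The members carried the marker genes of their label. Of these, Flt3 and Satb1 were also expressed in the Flt3-positive Dntt-negative cells, which were chosen by Flt3 and whose Satb1 level is given below. Flt3, not used to choose them, stood at 700.2, 648, 709 and 673 CPM, and Satb1 at 525, 492, 608 and 525 CPM. A Satb1 UMI was found in 96.0% of members (exact 95% interval 95.2 to 96.6%; 81.2% after thinning) and a Cmah UMI in 40.1% (38.4 to 41.8%; 25.6% after thinning). Cmah, which encodes the hydroxylase that makes the sialic acid Neu5Gc, was thus not detected in most members at this depth. Over all members there were 2 UMIs of Pax5, 0 of Cd3e and 9 of Siglech, which define B, T and plasmacytoid dendritic cells. The rule had already left out cells with Ebf1, Cd79a, Trbc1 or Trbc2, and the sort took cells negative for lineage markers. Low counts of Pax5 and Cd3e therefore follow in part from how the cells were chosen. Other genes of committed cells were present. The 12 genes of the B cell list summed to 45.2 to 49.4 CPM per tube in members against 32.3 to 35.6 CPM in Flt3-positive Dntt-negative cells. The 16 genes of the granulocyte-monocyte list summed to 1847 to 1907 CPM against 1696 to 2488 CPM. The 12 genes of the dendritic cell list, which include Flt3, summed to 1206 to 1318 CPM against 795 to 830 CPM. Flt3, which chose the comparison cells, made up 648 to 709 CPM of the sum in members, so this contrast does not read dendritic genes alone. The 13 genes of the erythroid list summed to 429 to 491 CPM per tube in members against 524 to 642 CPM in Flt3-positive Dntt-negative cells. The 7 endothelial and stromal genes summed to 213 to 242 CPM against 177 to 188 CPM, nearly all of it Pecam1, which progenitors also express. For the Dntt threshold itself, the background was read in cells with at least 5 UMIs of Pf4, a megakaryocyte gene: 2 of 119 GEM-X cells and 0 of 112 v3.1 cells held at least 2 Dntt UMIs (1.68%, exact 95% interval 0.204 to 5.94%, and at most 3.24%), at median depths of 14908 and 12949.5 UMIs. In cells with at least 3 UMIs of Klf1, an erythroid gene, they were 2 of 93 (2.15%) and 3 of 70 (4.29%, 0.893 to 12.02%), at median depths of 34424 and 36128 UMIs. In cells with at least 10 UMIs of Elane, a granulocyte gene, they were 2 of 214 (0.935%) and 1 of 160 (0.625%), at 28308 and 25732 UMIs. Among all classified cells the shares were 13.9% and 12.3%, at median depths of 9290.5 and 7626.5 UMIs. These intervals cover counting error only.

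Before the 5 other genes were applied, 4355 cells held at least 2 Dntt UMIs. Il7r was found in 960 of them, Ebf1 in 389, Cd79a in 178, Trbc2 in 143 and Trbc1 in 65. The members held a median of 4 Dntt UMIs (quartiles 2 and 8, highest 79). Just inside the threshold, 875 members (27.0%) held exactly 2 Dntt UMIs, and just outside it 2528 cells without the 5 other genes held exactly 1. The cells at exactly 1 UMI had 400.0 CPM of Flt3, 297 CPM of Satb1 and 22.3 CPM of Cmah. The members at exactly 2 had 566 CPM of Flt3, 436 CPM of Satb1 and 53.6 CPM of Cmah.

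Levels of 7 lymphoid and stem cell genes and of Mki67, picked as examples, are given by the number of Dntt UMIs as a description, with no test since Dntt chose the cells. From members with 2 Dntt UMIs to the 333 members with 15 or more, Cmah went from 53.6 to 232 CPM and Arpp21, which encodes a cAMP-regulated phosphoprotein, from 37.5 to 225 CPM. Ighm, the constant region of the immunoglobulin mu chain, went from 182 to 369 CPM, and Notch1, the receptor that directs T lineage choice, from 66.8 to 142 CPM. Hlf, a transcription factor of haematopoietic stem cells (HSCs), went from 294 to 116 CPM over the same bins, and Mecom, another, from 356 to 168 CPM. Rag2, a subunit of the recombinase, went from 2.06 to 12.2 CPM, and Mki67, a marker of cycling cells, from 486 to 682 CPM. Median depth was 10119 UMIs in the first and 12641 UMIs in the last of these bins, and its part in the profile was not tested. These values pool both mice. Mouse 1 and mouse 2 gave 594 and 281 cells in the first bin and 275 and 58 in the last. The part of this mix in the profile was not tested either.

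**Figure D1:**
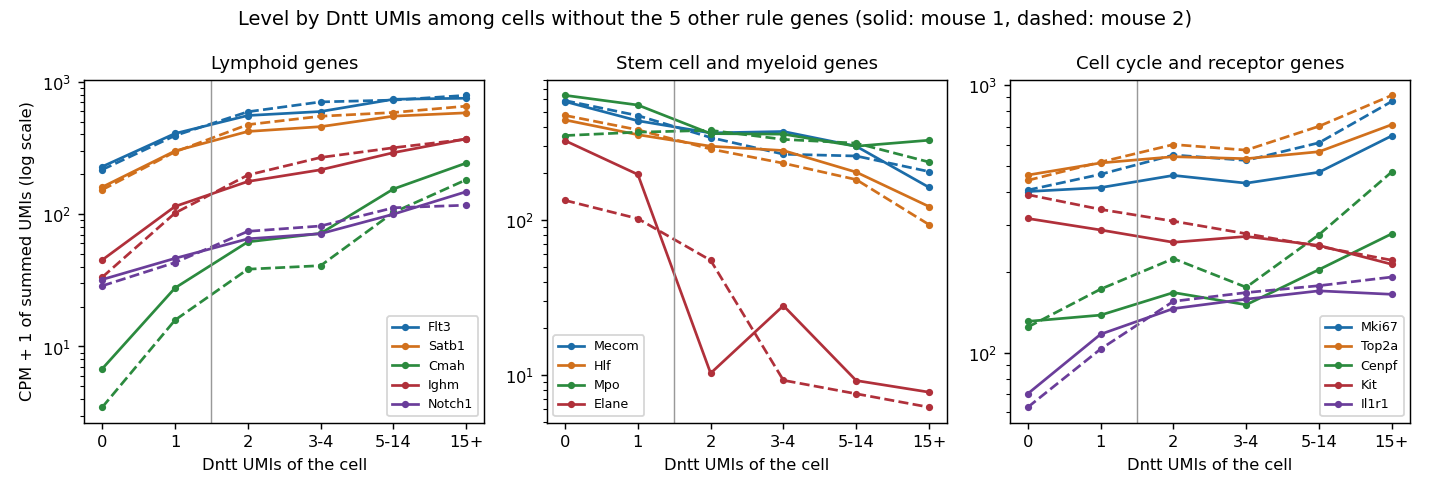
CPM plus 1 (log scale) of 14 genes against the number of Dntt UMIs of the cell, for cells without Il7r, Ebf1, Cd79a, Trbc1 and Trbc2. Solid lines are mouse 1 and dashed lines mouse 2, and members lie right of the vertical line; Cmah climbs to 232 CPM over both mice while Hlf drops to 116 CPM.

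The share of members differed far more between the mice than between the gates. In mouse 1, members were 13.4% of tdTomato-positive cells (523 of 3900, exact 95% interval 12.4 to 14.5%) and 14.7% of tdTomato-negative cells (1877 of 12762, 14.1 to 15.3%). In mouse 2 they were 4.49% (177 of 3945, 3.86 to 5.18%) and 5.29% (658 of 12435, 4.90 to 5.70%). Both tubes of mouse 1 lay above both tubes of mouse 2, in each chemistry. The ratio of mouse 1 to mouse 2 was 2.99-fold in the positive and 2.78-fold in the negative tubes, and 3.51-fold and 3.39-fold after thinning. The cells with both Dntt and Il7r differed in the same direction, at 2.49 and 2.90% of the mouse 1 tubes against 0.608 and 0.595% of the mouse 2 tubes. The Flt3-positive Dntt-negative cells, the broader progenitor pool, lay within 33.4 to 36.3% in all 4 tubes. With 2 animals no test between mice is possible, and age, treatment and sex were the same for both by the labels.

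**Figure D2:**
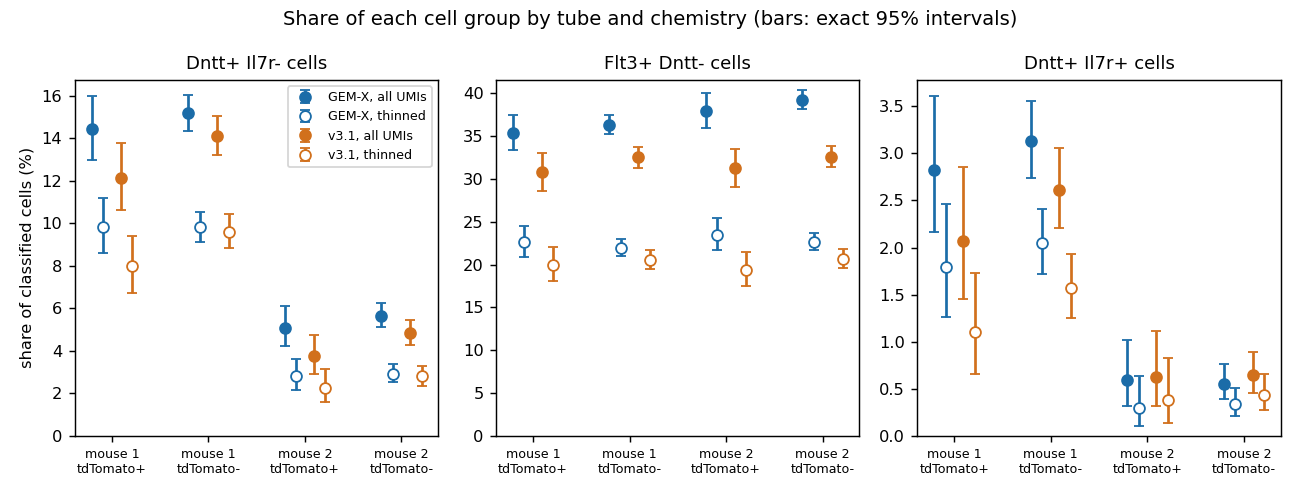
Share of classified cells (%) in each of the 4 tubes for the members, the Flt3-positive Dntt-negative cells and the cells with both Dntt and Il7r, by chemistry. Filled points use all UMIs, open points use cells thinned to 4000 UMIs, and bars are exact 95% binomial intervals; members sit at 12.1 to 15.2% in the mouse 1 tubes and 3.74 to 5.66% in the mouse 2 tubes.

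Between the gates, members were slightly rarer among tdTomato-positive cells of both mice. The positive over negative ratio of the share was 0.912 in mouse 1 and 0.848 in mouse 2, log2 ratios of -0.13 (95% interval -0.26 to -0.00335) and -0.24 (-0.47 to -0.00425) that cover counting error only. After thinning the ratios were 0.928 and 0.899, and in thinned GEM-X cells alone they were 1.003 and 0.963, so in mouse 1 the difference was not seen there. An exact permutation test within 2 mice cannot give a two-sided p below 0.5, so the difference has no test. Put the other way, 21.8% of the members of mouse 1 and 21.2% of those of mouse 2 came from the positive tube, against 23.7 and 24.2% of all other cells.

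Few genes differed by a large factor between the members of the 2 mice. Of 7375 genes with a mean of at least 20 CPM in members, 2 differed at least 2-fold in every gate and chemistry, both higher in mouse 2 and both named after their values were seen. Slc15a2, a peptide transporter, had 6.70 CPM in members of mouse 1 and 36.7 CPM in those of mouse 2, a log2 ratio of -2.45. Mtmr9, a myotubularin-related protein, had 23.4 and 83.6 CPM, a log2 ratio of -1.84. Both ratios were close to those of the Flt3-positive Dntt-negative cells (-2.16 and -1.73), so they were not seen in members alone. Cmah had 122 CPM in members of mouse 1 and 69.3 CPM in those of mouse 2.

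The next comparison asked how the members differ from the Flt3-positive progenitors that lack Dntt, with edgeR's quasi-likelihood test on UMIs summed per tube, blocked by tube, with p-values adjusted by Benjamini-Hochberg. Of 13286 genes tested, 3461 (26%) passed an adjusted p of 0.05, of which 1738 (13.1%) were higher and 1723 (13%) lower in members. The fit has 3 residual degrees of freedom, and its 4 tubes come from 2 mice. Among the genes with a mean of at least 20 CPM named by size, Cmah, Arpp21 and Fgf13 rose most. Of the HSC list 16 of 18 genes fell and of the megakaryocyte list 9 of 11, while all 18 genes of the G2/M list rose.

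Cmah (ENSMUSG00000016756; mm10 chromosome 13, 24327404 to 24477377) stood at 129, 120, 74.4 and 67.8 CPM in members and at 9.92, 8.92, 4.70 and 4.15 CPM in Flt3-positive Dntt-negative cells. The groups did not overlap in any tube, and both were lower in mouse 2. Its log2 fold change was 3.87 ± 0.06 (SE of the fit, n = 4 tubes; edgeR adjusted p = 2.44e-20). Arpp21 (ENSMUSG00000032503; chromosome 9, 112065091 to 112235938) stood at 95.1, 93.7, 83.6 and 66.4 CPM against 8.79, 9.75, 6.55 and 7.67 CPM. It rose by 3.34 ± 0.07 (edgeR adjusted p = 6.04e-19), again without overlap. Fgf13, a member of the fibroblast growth factor family that stays inside the cell, rose by 2.46 (85.5 to 117 CPM in members, 11.4 to 22.0 CPM in the other group).

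The 250 bases before the start of Dntt and of Cmah are shown because the levels of these genes define and follow the members. They are RefSeq sequences of GRCm38.p6 (mm10), both on the plus strand, chr19:41029025-41029274 for Dntt and chr13:24327154-24327403 for Cmah, where the table also holds a second start. Capitals mark CANNTG, the E-box read by E proteins such as those of Tcf3, Tcf4 and Tcf12 (its reverse complement has the same form). The motifs TGGGAA, the core read by Ikaros, and TGTGGT, read by Runx factors, were searched on both strands and gave no match.
Dntt: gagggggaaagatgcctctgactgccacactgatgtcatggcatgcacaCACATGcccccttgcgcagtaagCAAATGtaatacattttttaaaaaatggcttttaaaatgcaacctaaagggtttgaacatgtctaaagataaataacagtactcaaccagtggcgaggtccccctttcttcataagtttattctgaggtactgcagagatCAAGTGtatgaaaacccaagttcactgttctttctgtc
Cmah: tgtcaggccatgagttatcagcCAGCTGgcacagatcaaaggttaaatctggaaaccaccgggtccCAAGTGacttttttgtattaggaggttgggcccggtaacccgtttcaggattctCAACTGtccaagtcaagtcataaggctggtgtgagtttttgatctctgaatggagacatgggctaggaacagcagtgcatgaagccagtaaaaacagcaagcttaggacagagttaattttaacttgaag
Each window held 3 E-boxes. Of all 32851 windows of this length in the table, 66.2% held at least 1 E-box, 21.6% a TGGGAA and 14.05% a TGTGGT, so an E-box is common in such windows and these matches are a description only.

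Of the list of lymphoid-primed progenitor genes, 16 of 20 were tested, 14 were higher and 1 (Il2rg) was lower, with a median log2 fold change of 0.94 against 0.00324 over all genes tested. Ighm stood at 272, 250.02, 247 and 272 CPM in members and at 79.8, 68.7, 60.6 and 57.2 CPM in the other group, and rose by 2.02 ± 0.06. A transcript of the mu constant region in cells with nearly no Pax5 does not show a rearranged chain, since these counts do not tell germline from rearranged transcripts. Notch1 stood at 87.9, 90.0, 92.4 and 89.4 CPM against 41.8, 39.7, 39.2 and 37.1 CPM, and rose by 1.23 ± 0.05. Satb1 rose by 1.24 ± 0.04 from levels of 227 to 236 CPM. Il2rg, the gamma chain shared by several interleukin receptors, fell by 0.14 (adjusted p = 0.028), from 63.8 to 54.6 CPM as a mean of the tubes. The thymus-homing receptor Ccr9 rose by 3.30 but was scarce, at 7.29 to 16.6 CPM in members and with a UMI in 7.14% of them.

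Among 26 tested lymphoid transcription factors, 15 were higher and 5 lower, with a median of 0.11. Mef2c, Ikzf1 (Ikaros), Tcf4, Ets1 and Pou2f2 rose, by 0.63, 0.51, 0.63, 0.93 and 0.66. Lmo2, a cofactor active in stem cells, fell by 0.26, and Ikzf2 (Helios) fell by 0.46. Runx3 (log2 fold change 0.02) and Zeb2 (0.03) did not pass the test. In the list of recombination and end-joining genes, 5 of 12 tested were higher and none was lower. Rag2 rose by 2.19 but to a mean of 4.24 CPM, with a UMI in 4.57% of members. Xrcc6, which encodes the Ku70 subunit of the DNA end-binding complex, rose by 0.47. Rag1 was too low to be tested, with 33 UMIs over all members and a UMI in 0.896% of them. Of the B cell list, 4 genes were tested and 1 was higher, Bank1, a scaffold protein of B cell receptor signalling, by 1.96. Of the T, NK and innate lymphoid list, 6 were tested, 2 were higher and 4 lower. Klrd1, an NK cell receptor subunit, rose by 3.57 to a mean of 2.89 CPM and Cd7 by 2.10 to a mean of 3.29 CPM, while Zbtb16, Gata3 and Thy1 fell, by 1.98, 0.89 and 0.67. Lck, a T cell kinase outside the list, rose by 1.41 (30.2 to 32.9 CPM in members, 11.7 to 12.7 CPM in the other group).

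Of the receptors for cytokines, 5 of 15 tested were higher and 5 lower. Il1r1, the interleukin 1 receptor, stood at 165, 159, 166 and 169 CPM in members against 97.2, 96.4, 87.9 and 90.6 CPM, and rose by 0.85 ± 0.04. Il6st and Il18r1 rose by 0.60 and 0.62. Kit, the stem cell factor receptor used in the sort, fell by 0.34. Of 13 homing and adhesion genes tested, 9 were higher and 2 lower. The chemokine receptor Ccr7 rose by 2.43 and the integrin gene Itgal by 0.67, while Itga6 fell by 0.69.

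Of the HSC list, all 18 genes were tested, 16 were lower and none was higher, with a median of -1.04. Hlf stood at 199, 242, 203 and 228 CPM in members and at 440, 471, 501 and 507 CPM in the other group. Hlf fell by 1.07 ± 0.04, Mecom by 0.83 ± 0.04 and Procr, the protein C receptor, by 1.23 ± 0.09. Of the megakaryocyte list 9 of 11 tested were lower, of the erythroid list 3 of 7 were lower and 1 higher, and of the granulocyte-monocyte list 9 of 16 were lower and 4 higher. The summed level of that list was lower in members than in the other group in both tubes of mouse 1 and higher in both tubes of mouse 2. Of the dendritic cell list 3 of 4 were higher. Mpo, a granule peroxidase, stood at 330, 331, 307 and 339 CPM in members against 582, 484, 380 and 354 CPM, and fell by 0.40 ± 0.07. The neutrophil elastase gene Elane fell by 1.68 ± 0.22. Irf8 and Clec12a, used by dendritic and monocytic cells, rose by 0.91 and 1.03, so the members of this list did not move one way. The genes named for the largest falls were Trpc6, Sox6, Pcdh7, Slc18a2, Prkg1, Dlg2, Palld, Plxdc2, Csgalnact1 and Elane, with log2 fold changes of -2.20 to -1.68. The other genes named for the largest rises were Clec2i, Ncf1, Evl, Il12a, Tpm4 and Ephb2, from 1.91 down to 1.29. Il12a, a subunit of interleukin 12, stood at 129, 123, 104 and 117 CPM against 48.8, 46.4, 39.1 and 40.7 CPM.

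All 18 genes of the G2/M list (spindle, cyclin and condensation genes) were higher in members, with a median of 0.50, and 8 of 17 G1/S genes were higher, with a median of 0.11. Cenpf, a kinetochore protein, stood at 222, 184, 312 and 227 CPM against 137, 129, 128 and 121 CPM and rose by 0.84 ± 0.07. The summed G2/M level was 2375 to 3483 CPM in members and 1856 to 2112 CPM in the other group. Bcl2, the survival factor, rose by 0.66. Limits of the comparison: the count of passing genes was 2105 with DESeq2, 1605 with the v3.1 counts alone and 2284 after thinning, and members were the deeper group, the part of which was not tested.

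**Figure D3:**
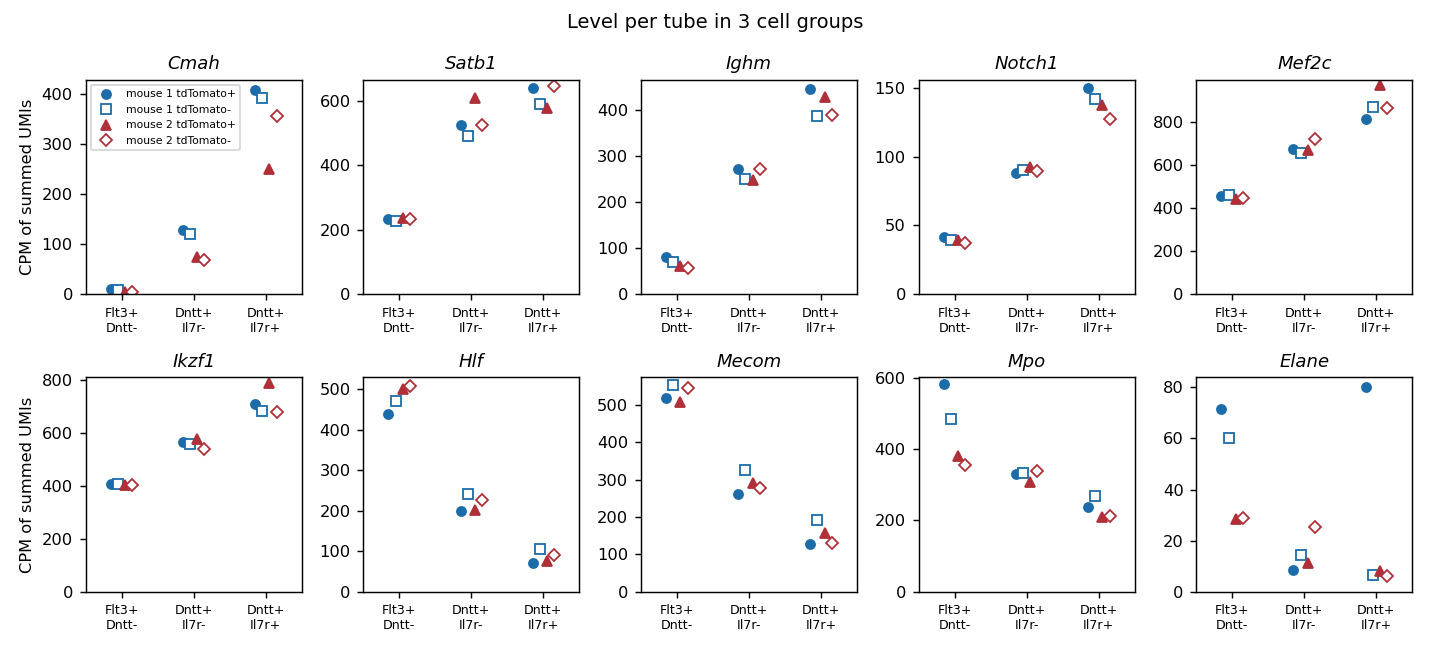
CPM of 10 genes in the 4 tubes (blue circles and squares for mouse 1, red triangles and diamonds for mouse 2, filled for tdTomato-positive) in Flt3-positive Dntt-negative cells, members and cells with both Dntt and Il7r. Members lie between the other groups for Cmah, Ighm, Notch1, Hlf and Mecom in every tube. Not all 10 genes keep this order: Elane in the mouse 1 positive tube is lower in members than in both other groups.

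Il7r, the receptor for interleukin 7, marks the next known step of lymphoid development. The comparison with cells that held both Dntt and Il7r shares the member sums with the one above, so the values of both stand side by side. Of 11374 genes tested with the same edgeR test, 1527 (13.4%) passed, of which 673 (5.92%) were higher and 854 (7.51%) lower in members. Of the HSC list 12 of 15 tested genes were higher in members than in these cells, while 12 of 18 lymphoid-primed and 17 of 18 G2/M genes were lower. Cmah stood at 409, 392, 250 and 357 CPM in the Dntt and Il7r cells, above every member tube, and differed in members by -1.87 ± 0.07 on the log2 scale (edgeR adjusted p = 2.50e-19). Arpp21 stood at 315, 370, 352 and 378 CPM there, a difference of -2.07 ± 0.07 (edgeR adjusted p = 1.08e-20).

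Of the lymphoid-primed list 12 of 18 tested were lower in members and none was higher, with a median of -0.36. Rag2 stood at 22.9, 25.9, 19.2 and 29.9 CPM in the Dntt and Il7r cells and at 3.46, 4.61, 5.83 and 3.08 CPM in members, a log2 fold change of -2.65. Blnk, an adaptor of the pre-B cell receptor, differed by -2.34 and Ccr9 by -1.41. Ighm, Notch1 and Satb1 differed by -0.67, -0.68 and -0.26. Of the transcription factors tested, 8 of 25 were lower and 5 higher in members: Ets1 differed by -1.04 and Ikzf1 by -0.36, while Ikzf2 was higher by 0.99 and Lmo2 by 0.60. Cox6a2, a cytochrome oxidase subunit of muscle, had the largest difference among the genes named by size, at 74.1, 91.3, 63.2 and 62.8 CPM in the Dntt and Il7r cells and 12.7, 13.2, 14.6 and 8.16 CPM in members (-2.74 ± 0.11). The others named for size were Mpeg1, Slc24a2, Col19a1, Ctnnd2 and Mrvi1, at -2.53 to -1.46.

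The HSC genes had a median of 0.82. Hlf stood at 70.2, 105, 76.9 and 91.7 CPM in the Dntt and Il7r cells, and the members exceeded it by 1.27 ± 0.07. Klf12, Vldlr, Samd12, Mdga1, Myct1, Dach1, Cd63, Rab38 and Car2 were the other genes named for the largest excess in members, by 1.37 down to 1.04. Kit was higher in members by 0.51 and Il1r1 by 0.37. Of the G2/M list 17 of 18 were lower in members, with a median of -0.54, and 14 of 17 G1/S genes were lower, with a median of -0.31. The count of passing genes was 698 with DESeq2, 446 with the v3.1 counts alone, 351 after thinning and 819 without the mouse 1 negative tube, which holds 370 of the 565 cells. The Dntt and Il7r cells were the deeper group, and the part of depth in these differences was not tested.

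**Figure D4:**
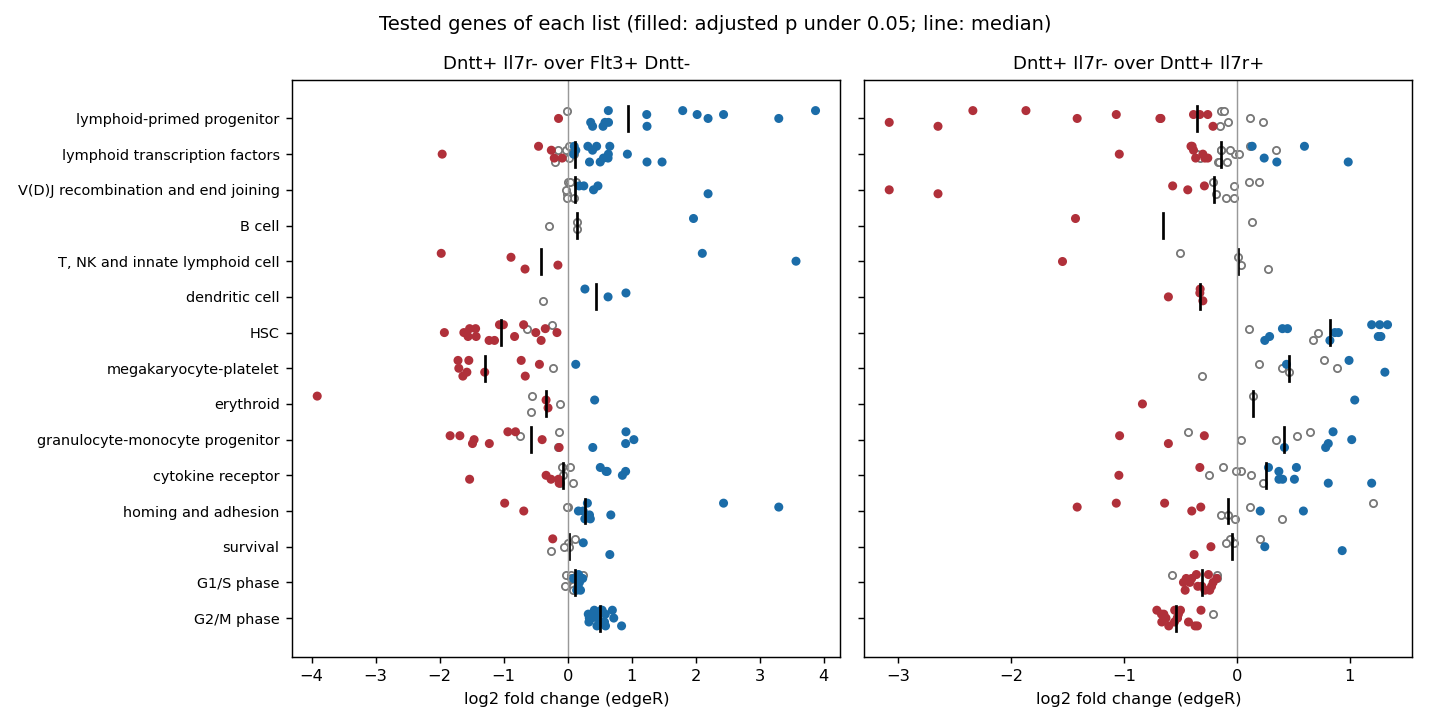
Log2 fold change (edgeR) of every tested gene of 15 lists, members over Flt3-positive Dntt-negative cells on the left and members over cells with both Dntt and Il7r on the right. Filled points passed an adjusted p of 0.05 and black lines are list medians; the HSC median is -1.04 on the left and 0.82 on the right.

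The last comparison asked whether members with the tdTomato label, a mark of neonatal Tppp3 activity, differ from members without it. How completely the label marks such cells was not measured, so the negative gate is not known to lack that history. In the tdTomato-positive members 9 of 18 G2/M genes were higher and none of 17 G1/S genes passed, and 1 of 15 HSC genes was lower. Of 12229 genes tested with the mouse as a block, 51 (0.417%) were called by edgeR. The positive tubes were higher for 30 (0.245%) and lower for 21 (0.172%). The fit has 1 residual degree of freedom, so its errors rest on a spread pooled over genes. The count was 17 without the mouse 1 positive tube, 20 without the mouse 1 negative, 2 without the mouse 2 positive and 12 without the mouse 2 negative tube, each fitted without the block. It was 0 with DESeq2, 0 without the block and 0 after thinning, where 40, 369 and 407 genes had an unadjusted p under 0.05. Of the 51 genes, 15 also passed with the GEM-X counts alone and 20 with the v3.1 counts alone. The 51 include Cd74 and H2-Aa, whose higher level in the positive tubes rests on 1 cell of mouse 2. Without that cell, Cd74 in the tube was 15.3 CPM in place of 141 CPM and H2-Aa 21.7 CPM in place of 73.9 CPM. They are among 5 called genes with opposite directions in the 2 mice.

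All 18 G2/M genes were higher in the positive tubes on average and 9 passed, with a median log2 fold change of 0.28 against 0.000403 over all genes. Cenpf stood at 222 and 184 CPM in the positive and negative tube of mouse 1 and at 312 and 227 CPM in mouse 2, and rose by 0.37 ± 0.06 (edgeR adjusted p = 1.12e-07). With the v3.1 counts alone Cenpf was higher by 0.63 and passed, and with the GEM-X counts alone it was at 0.21 and did not (edgeR adjusted p = 0.38). Nor did Cenpf pass with at least 3 Dntt UMIs (0.25, edgeR adjusted p = 0.40) or after thinning (0.33). In the fits without 1 tube, which have no mouse block, it ranged from 0.15 (without the mouse 2 positive tube) to 0.63. Ube2c, a ubiquitin-conjugating enzyme of mitosis, stood at 159 and 123 CPM and at 175 and 136 CPM, and rose by 0.38 ± 0.06. Aspm, Pttg1, Ccnb2, Cdc20, Kif22 and Cenpa, all used in mitosis, rose by 0.34 to 0.44. The summed G2/M level was 2669 and 2375 CPM in mouse 1 and 3483 and 2693 CPM in mouse 2. In the GEM-X library alone the sums of mouse 1 were 2950 and 2839 CPM, closer than the 2237 and 1748 CPM of v3.1. None of the 17 tested G1/S genes passed. Jun, an immediate early gene, rose by 0.43 (80.7 and 56.8 CPM in mouse 1, 47.6 and 43.4 CPM in mouse 2). In the fit without the mouse 1 positive tube, which has no mouse block, Jun was at -0.11. Fgf13 rose by 0.36. The summed G2/M level was also higher in the positive tubes of both comparison groups. In Flt3-positive Dntt-negative cells it was 2112 and 1943 CPM in mouse 1 and 1952 and 1856 CPM in mouse 2. In the cells with both Dntt and Il7r it was 3684 and 3442 CPM and 5435 and 4129 CPM. The direction was therefore not seen in members alone.

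Prkg1, a cGMP-dependent protein kinase (ENSMUSG00000052920; chromosome 19, 30564489 to 31765033), fell most among the genes named by size. It stood at 27.2 CPM in the positive and 60.7 CPM in the negative tube of mouse 1 and at 26.3 and 40.4 CPM in mouse 2, and differed by -1.004 ± 0.115 on the log2 scale (edgeR adjusted p = 1.52e-14). Prkg1 passed with each chemistry alone, at -0.98 (GEM-X) and -0.94 (v3.1), and of the 4 fits without 1 tube it passed only without the mouse 2 negative tube. Its UMIs came from few cells: 56 of 523 and 346 of 1877 members in mouse 1 and 18 of 177 and 89 of 658 in mouse 2. In the mouse 2 positive tube 5 cells held 64.8% of them. Angpt1, the angiopoietin that HSCs and progenitors express, stood at 966 and 1160 CPM in mouse 1 and at 1234 and 1458 CPM in mouse 2, and fell by 0.24 ± 0.03. Hlf fell by 0.23 ± 0.06, the only 1 of 15 tested HSC genes to pass; 14 of the 15 had a negative sign, with a median of -0.23. Gulp1, Tgfbr3, Csgalnact1, Dach1, Cd63 and Auts2 fell by 0.31 to 0.73. Elane, from the granulocyte-monocyte list, fell by 0.90 at a mean of 9.79 and 19.8 CPM, and was at 0.82 after thinning. Elane passed with the GEM-X counts alone (-1.34) and not with the v3.1 counts alone (-0.51). It did not pass without the 5% of cells with the highest Scrublet doublet scores (-0.51). Nor did it pass with a top hashtag at least 10 times the next (-0.51). The summed HSC level of members was 1284 and 1487 CPM in mouse 1 and 1284 and 1373 CPM in mouse 2. It was also lower in the positive tubes of Flt3-positive Dntt-negative cells (2153 and 2319 CPM, 2351 and 2473 CPM), so this direction was not particular to members.

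None of the 17 tested lymphoid-primed genes and none of the 25 lymphoid transcription factors passed edgeR's test, and of the recombination list 1 of 12 was higher. With 0.417% of all genes called, such counts say nothing particular to these lists. Over the whole fit 748 genes had an unadjusted p under 0.05. Cmah differed by 0.12 ± 0.07 (adjusted p = 0.89) and Satb1 by 0.16 ± 0.04 (adjusted p = 0.061), both higher in the positive tubes of both mice. In simulated counts with these depths, 91.7% of genes changed 2-fold were recovered. The simulation gave every gene the same dispersion, had no difference between the mice and changed only well-counted genes. It therefore does not cover differences as small as those of Cmah and Satb1, or the spread between these mice. Tppp3 itself, the gene of the Cre allele, gave 11 UMIs over all members.

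**Figure D5:**
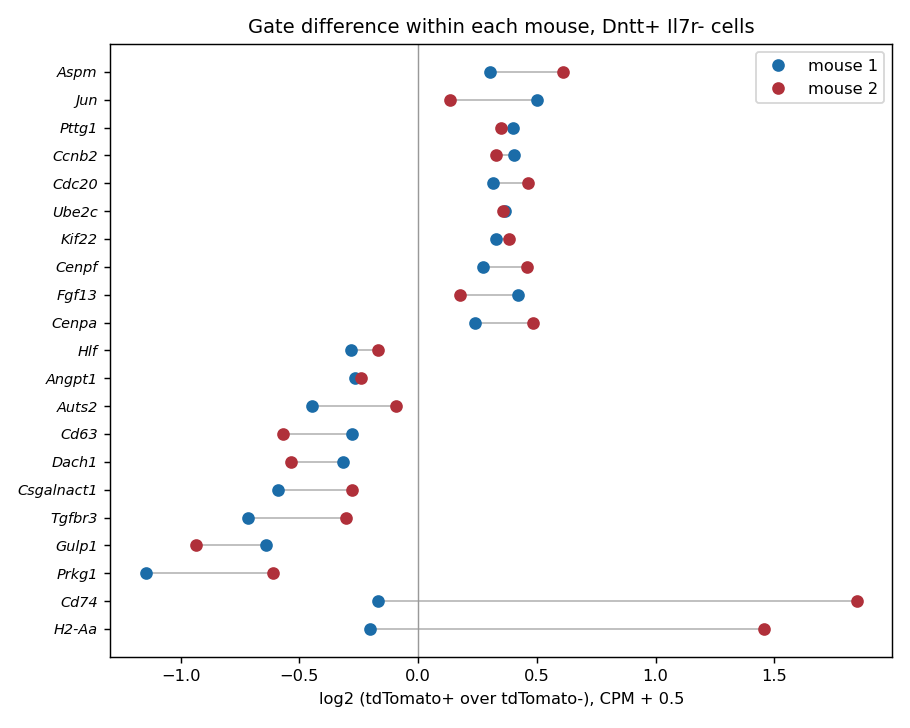
Log2 ratio of CPM plus 0.5 in the tdTomato-positive over the tdTomato-negative tube for members of mouse 1 (blue) and mouse 2 (red), for the genes named between the gates and for Cd74 and H2-Aa. Prkg1 is at -1.15 and -0.61 and Cenpf at 0.27 and 0.46, while Cd74 is at -0.17 in mouse 1 and 1.85 in mouse 2.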

How the data were processed

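Both deposited matrices contain unnormalized UMI counts of genes and hashtags by cell, which the authors made with Cell Ranger, per the file headers version 8.0.1 for GEM-X and version 7.1.0 for v3.1. The submitters' processing notes name Cell Ranger 7.0.0 and mm10. The chemistry of each matrix was inferred from its name and version. The mouse and gate of a hashtag come from the hashtag text the authors deposited. Cells were kept with at least 1000 genes, at most 10% mitochondrial UMIs, and a top hashtag of at least 10 UMIs and 3 times the next. This classified 18294 GEM-X and 14748 v3.1 cells. Cells with 2 hashtags of similar strength were left out by this rule. Scrublet (scanpy 1.11.5) called 0 cells at its automatic threshold, so the 5% with the highest scores were left out as an alternative.

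UMIs were summed per tube over both chemistries and tested with edgeR 4.0.16 (TMM, filterByExpr, trended dispersion at least 1e-04, Benjamini-Hochberg at 0.05) in R 4.3.3. The genes that chose the cell groups were not tested between them. The block is the mouse or tube, since the hashtag text gives both tubes of a mouse the same animal. The difference between the mice in positive and negative tubes had a Pearson r of 0.364 across 7348 genes, which are not independent. DESeq2 1.42.0 was an alternative. SE is the fold change over the square root of F. The method was tested on simulated counts. Genes were named when past the test, at a mean of at least 20 CPM and of 1 sign in every tube pair and both chemistries, up to 10 a direction by size, leaving out unnamed models and multigene families, besides listed genes chosen by role. A few genes that meet the rule or belong to the lists are not reported here. Members, lists and rules were chosen with earlier results of these data known. Positions are from GENCODE M21, matched for 99.6% of genes.

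The lists were lymphoid-primed progenitor, lymphoid transcription factor, recombination, B cell, T and NK cell, HSC, megakaryocyte, erythroid, granulocyte-monocyte, dendritic cell, MHC class II, mast cell, endothelial-stromal, G1/S, G2/M, cytokine receptor, homing, interferon, immediate early, survival and tubulin genes.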

Additional observations from a re-analysis of the deposited data

Results flagged for a closer look

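Between the gates, 5 of the 51 called genes had opposite directions in the 2 mice, and the difference between the mice was not tested. They were Cd74, H2-Aa, Pf4, Fgf12 and Hist1h4d, a histone gene of a multigene family. Pf4, at a mean of 4.75 CPM, had a log2 ratio of 1.79 in mouse 1 and -0.69 in mouse 2. Fgf12, at a mean of 2.45 CPM, had 2.15 and -0.19. For Cd74, the invariant chain of MHC class II, the log2 ratio of the positive over the negative tube was -0.168 in mouse 1 and 1.861 in mouse 2. For H2-Aa, an MHC class II alpha chain, it was -0.201 and 1.474. Of the 291 Cd74 UMIs in the 177 members of the mouse 2 positive tube, 260 lay in a single v3.1 cell, which also held 108 of H2-Aa, 72 of H2-Eb1, 253 of Cst3, 26 of Irf8 and 9 of Xcr1, genes of dendritic cells. It had 31641 UMIs in all, 5 of Dntt and 0 of Cmah, and its top hashtag had 3200 UMIs against 929 for the next. Without that cell, Cd74 in the tube was 15.3 CPM in place of 141 CPM and H2-Aa 21.7 CPM in place of 73.9 CPM. In the other 3 tubes Cd74 was at 38.8 to 43.7 CPM and H2-Aa at 21.7 to 26.6 CPM.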

How the results depend on the processing

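The log2 ratio of the member share between the gates stayed negative in both mice under 6 alternatives, at -0.07 to -0.22 in mouse 1 and -0.15 to -0.37 in mouse 2. Against Flt3-positive Dntt-negative cells, the 3461 calls became 2105 with DESeq2, 1605 with v3.1 alone and 2284 after thinning; leaving out 1 tube gave 2358 to 3346. Against the cells with both Dntt and Il7r, the 1527 calls became 698, 446 and 351 under the same settings, and leaving out 1 tube gave 819 to 1575. Without the replicate block the counts were 2591 and 1106. Between the gates, the 51 calls became 0 without the block, 0 with DESeq2, 0 after thinning, 17 with GEM-X alone, 28 with v3.1 alone, 28 without the highest Scrublet scores (an alternative chosen after seeing the data), 10 with at least 3 Dntt UMIs and 31 with a top hashtag 10 times the next; leaving out 1 tube, fitted without the block and with the lone tube assumed to vary like the others, gave 2 to 20.

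Signs were followed only for genes named by size or listed: 31 between the gates, 167 against Flt3-positive cells and 124 against the Dntt and Il7r cells. Of the 31, Jun (-0.1067), Pf4 (-1.0822) and Cmah (-0.3974) changed sign between the gates without the mouse 1 positive tube. Cmah (-0.1531) did so without the mouse 2 negative tube, and H2-Aa (-0.2202) and Cd74 (-0.0894) without the mouse 2 positive tube. H2-Aa (-0.284) and Cd74 (-0.5057) did so with GEM-X alone, and Pf4 (-0.7207) with v3.1 alone. H2-Aa (-0.126) and Cd74 (-0.3623) changed sign with the stricter hashtag rule. Pttg1 (-0.0466), Elane (0.8184), H2-Aa (-0.2004) and Cd74 (-0.5227) changed sign after thinning. Nkg7 (0.133), Runx2 (-0.0042) and Tubb6 (0.0914) against Flt3-positive cells and Mycn (-0.1268) against the Dntt and Il7r cells did so after thinning, and Ccne2 (0.0512) against the latter with v3.1 alone. Except for the genes resting on 1 cell, the cause was not tested. The highest values with 1 tube left out were 0.6699 for Jun, 1.8968 for Pf4, 0.6791 for Cmah, 1.5369 for H2-Aa and 1.7623 for Cd74. The fits without 1 tube also drop the mouse block, so 2 choices change at once and differences between the mice enter them. Within each mouse Jun (0.50 and 0.13) and Cmah (0.10 and 0.13) were higher in the positive tube.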

Other observations

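Over all genes tested, 13.1% were higher and 13% lower in members than in Flt3-positive Dntt-negative cells, and 5.92% higher and 7.51% lower than in the cells with both Dntt and Il7r, and the counts below are read against these shares. Of the MHC class II list, 1 of 7 genes tested was higher and none lower in members than in Flt3-positive Dntt-negative cells, and none of 7 passed against the cells with both Dntt and Il7r. Of the interferon list, 3 of 13 tested were higher against the first group, and 2 of 12 were higher and 1 lower against the second. Of the immediate early list, 2 of 15 were higher and 4 lower against the first group, and 1 of 13 was higher against the second. Of the survival list, 2 of 8 were higher and 1 lower against the first group, and 2 of 8 higher and 2 lower against the second. Of the mast cell list, 1 of 2 tested was lower against the first group. Of the Tppp3 and tubulin list, 3 of 9 were higher and 3 lower against the first group, and 3 of 8 were lower against the second.

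The Elane level of the cells with both Dntt and Il7r was 80.2 CPM in the mouse 1 positive tube and 5.98 to 8.24 CPM in the other 3 tubes. Siglech, a gene of plasmacytoid dendritic cells, was at 43.9 CPM in those cells of the mouse 2 positive tube, which number 24, and at 0 to 1.92 CPM in the other 3 tubes.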
